A study of Mus musculus with 102 samples.

Results

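WSTF was listed at 6414 of the 67697 regions for which the authors deposited a table of chromatin protein occupancy in mouse embryonic stem (ES) cells, 9.47% of all regions. The 6414 WSTF regions were taken as every region with a deposited WSTF log2 enrichment. The table leaves out values under a fold of 1.5 (log2 0.585), and a region without WSTF is one with no listed WSTF value. Such a region may lie under that limit or may lack a value for another reason. Which of these held was not tested. The lowest listed WSTF value was 0.59, and no value below the limit was given. Measured by chromatin immunoprecipitation with sequencing (ChIP-seq), WSTF stands beside 16 other factors, acetylation of histone H3 lysine 27 (H3K27ac) and methylation of histone H3 lysine 4 (H3K4me1 and H3K4me3) in the same cells. The aim of the series was to find the regulators that lie together with H3K4me1 and to see whether their binding needs it.

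The ES cells of the occupancy table were of strain 129/Ola, grown on feeder cells and then passaged without them before crosslinking, with no genotype in the labels. WSTF was precipitated with the abcam antibody ab51256 in 2 libraries. Of the 17 factors, 14 had 2 libraries, BAF155 and SMC3 had 3 and SSRP1 had 1. Another ES line, R1 (129SV), served for the last comparison: wild-type cells were set against cells carrying catalytically dead MLL3 and MLL4, with 2 libraries for each mark and line. The deposited tables hold 1 value per factor and region, with no counts and no value per library. The depth behind a value is therefore unknown, the agreement of the 2 WSTF libraries could not be seen, and no test between groups was possible. Intervals given below are 95% intervals for counting error over regions, by Wilson's method for a share and Newcombe's for a difference of shares. Regions that share libraries and genomic neighbourhoods are not independent, so these intervals are too narrow for a statement about replicate cultures.

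WSTF, the product of Baz1b, lies in the chromosomal segment deleted in Williams-Beuren syndrome. It is the partner of the ISWI ATPase SNF2H (SMARCA5) in the WICH remodelling complex, which slides nucleosomes and is recruited to replicating chromatin through the clamp PCNA. BAZ1A (ACF1), from the same protein family, takes the place of WSTF in the ACF complex with the same ATPase. WSTF carries a PHD finger and a bromodomain, can phosphorylate a tyrosine of the histone variant H2A.X, and has also been purified with SWI/SNF (BAF) subunits and with splicing proteins. H3K4me1 without H3K4me3 is the usual mark of enhancers, H3K4me3 that of promoters, and H3K27ac that of active copies of both.

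WSTF regions were mostly H3K4me1-only regions, but WSTF was more frequent among H3K4me3-only regions. Of the 6414 WSTF regions, 3534 (55.1%, interval 53.9 to 56.3) carried H3K4me1 only, 1871 (29.2%) carried both marks and 1009 (15.7%) carried H3K4me3 only. Over all regions these classes made up 61.8%, 27.2% and 11.01%. Read the other way, WSTF was listed at 8.45% of the 41819 H3K4me1-only regions (8.19 to 8.72), at 10.2% of the 18425 regions with both marks (9.73 to 10.6) and at 13.5% of the 7453 H3K4me3-only regions (12.8 to 14.3). The order held when each class was standardised to the same distribution of region widths, at 7.44%, 11.4% and 15.2%.

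The order of the classes depended on how strong the WSTF signal was. At a log2 enrichment of 1 or more, a 2-fold enrichment, the shares were 5.80%, 6.17% and 6.66% and their intervals overlapped between neighbouring classes. At a log2 enrichment of 2 or more they ran the opposite way: 1.36% of H3K4me1-only regions (1.26 to 1.48), 1.13% of regions with both marks (0.986 to 1.29) and 0.684% of H3K4me3-only regions (0.521 to 0.899). Of the 829 regions at that level, 68.8% were H3K4me1 only and 6.15% H3K4me3 only. Among the 345 regions with a log2 enrichment of 3 or more, 73.3% were H3K4me1 only and 4.93% H3K4me3 only. Region width moved with this pattern, as described below, and the shares at a log2 of 1 or 2 were not standardised to width.

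**Figure D1:**
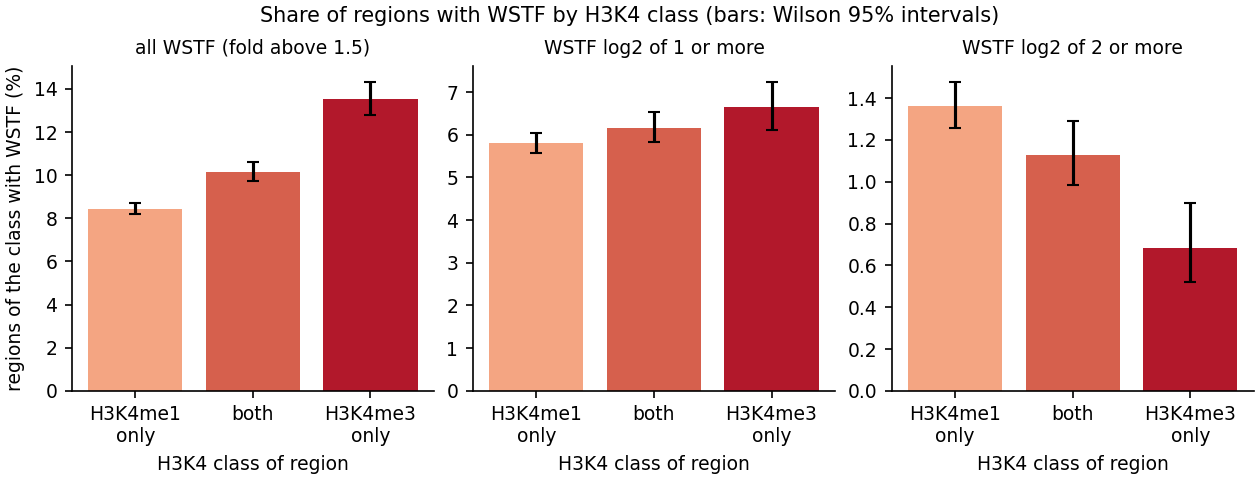
Share of the regions of each H3K4 class (percent, vertical axes starting at 0 and differing between panels) at which WSTF was listed, reached a log2 enrichment of 1 or reached 2, with Wilson 95% intervals. The share is highest in H3K4me3-only regions for all listed WSTF (13.5%) and highest in H3K4me1-only regions at a log2 of 2 or more (1.36%).

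SNF2H and BAZ1A were distributed over the classes in another way. SNF2H was listed at 26965 regions, of which 39.5% were H3K4me1 only, 46.4% carried both marks and 14.1% were H3K4me3 only. For the 15429 BAZ1A regions these shares were 43.7%, 45.8% and 10.5%. Both were most frequent at regions with both marks, SNF2H at 67.9% and BAZ1A at 38.3% of them, against 25.5% and 16.1% of H3K4me1-only regions. H3K4me1-only regions thus took a larger part of the WSTF list than of the SNF2H list (55.1% against 39.5%), and the WSTF share varied less between the classes than that of either ISWI protein.

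The enhancer lists deposited by the authors divide H3K4me1-only regions at an H3K27ac log2 enrichment of 1. WSTF was listed at 1203 of 12492 active enhancers (9.63%, 9.13 to 10.2) and at 2331 of 19567 poised enhancers (11.9%, 11.5 to 12.4). At the 9760 H3K4me1-only regions in neither list WSTF was listed at 0, so both lists together hold each of the 3534 H3K4me1-only WSTF regions. The shares in both lists are raised by that selection, and their order turned without it. Over all H3K4me1-only regions, WSTF was listed at 8.71% of the 13811 with an H3K27ac log2 enrichment of 1 or more (8.25 to 9.19). It was listed at 8.32% of the 28008 others (8.005 to 8.65), so the intervals overlapped.

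Taken over all regions, H3K27ac was slightly more frequent with WSTF. It was listed at 4097 of the 6414 WSTF regions (63.9%, 62.7 to 65.0) and at 62.5% of the others, a difference of 1.40 points (0.156 to 2.63). By chromosome, with the Y left out, the unweighted share was higher with WSTF on 10 of 20. When the regions without WSTF were weighted to the H3K4 class and width of the WSTF regions, the difference was 2.64 points. With H3K27ac counted only at a log2 enrichment of 1 or more, it was 4.79 points (3.51 to 6.08). Within H3K4me1-only regions the unweighted difference had the opposite sign, 43.9% with WSTF and 46.7% without, and the weighted one did not, at 2.85 points. The same held at both-mark regions, with 86.9% and 88.4% unweighted and a weighted difference of 1.64 points. At H3K4me3-only regions the difference was 1.60 points (-0.435 to 3.36) and 3.76 points weighted. The median H3K27ac log2 enrichment where it was listed was 1.37 with WSTF and 1.29 without.

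WSTF regions were narrow. Their median width was 414 bp (403 to 425), against 843 bp (832 to 856) for regions without WSTF. The gap was present in each class: 312 against 573 bp in H3K4me1-only regions, 602 against 1164 bp in regions with both marks and 1192 against 1551 bp in H3K4me3-only regions. Regions of at most 300 bp made up 34.7% of the WSTF regions and 21.1% of the others. In the narrowest 10% of all regions, from 181 to 235 bp, WSTF was listed at 14.8%, and in the widest 10%, from 3050 to 26271 bp, at 1.71%. BAZ1A showed a like decline, from 31.1% to 6.23%, whereas SNF2H stood between 36.4% and 43.4% over the 10 width classes, with 37.2% in the narrowest and 37.0% in the widest. How region borders were set is not given in the sources used here, so the width is a property of the deposited region and not of the WSTF peak.

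**Figure D2:**
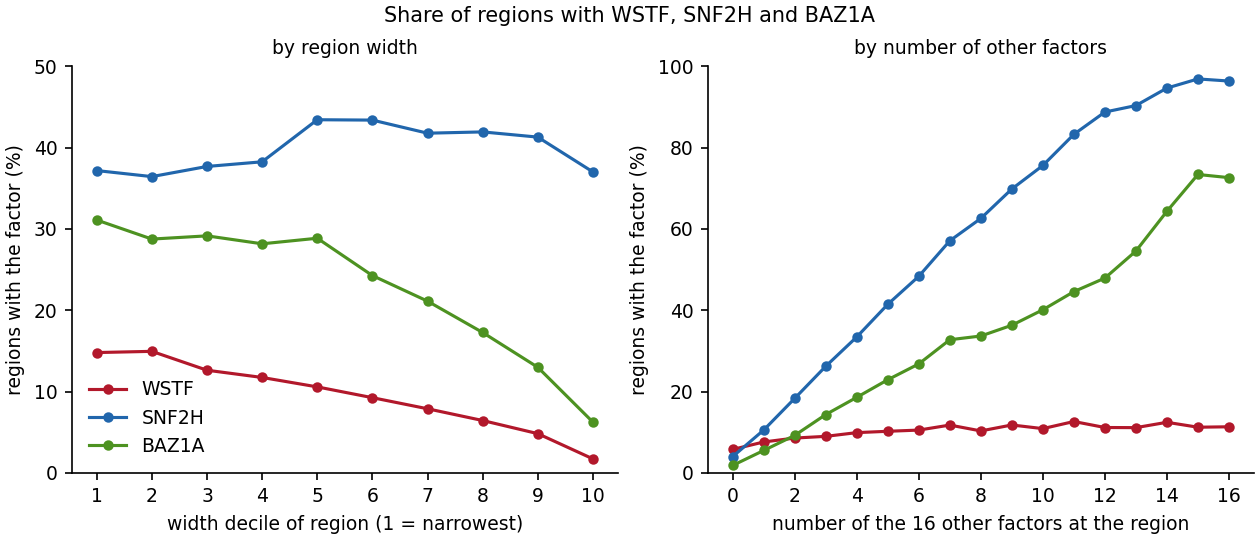
Share of regions (percent) at which WSTF, SNF2H and BAZ1A were listed, by decile of region width (left; decile 1 the narrowest) and by the number of the 16 other factors at the region (right; for each protein the 16 factors other than itself). WSTF stands at 14.8% in the narrowest and 1.71% in the widest decile and stays between 5.76% and 12.6% along the number of other factors, where SNF2H goes from 4.00% to 96.4%. The 96.4% rests on 55 regions, all of them with WSTF.

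In strength, WSTF had the widest spread of the 17 factors. Its median log2 enrichment was 1.14 (a fold of 2.20), against 0.90 to 1.08 for the other 16, although it had the fewest regions (the next, BRG1, had 12687). The SD over its regions was 0.69, against 0.21 to 0.31. Its 95th percentile was 3.06, while the other factors lay between 1.33 and 1.67. The strongest WSTF region reached 4.57, a fold of 23.8, and the strongest region of any other factor was one of SMC3 at 3.21, a fold of 9.28. A log2 enrichment of 2 or more was given at 829 WSTF regions, 12.9% of the list. For the other 16 factors that share ran from 0.0583% (BAZ1A, 9 regions) to 0.972% (SMC3), and SNF2H had 33 such regions. At a log2 of 3 or more there were 345 WSTF regions and at most 5 for any other factor.

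**Figure D3:**
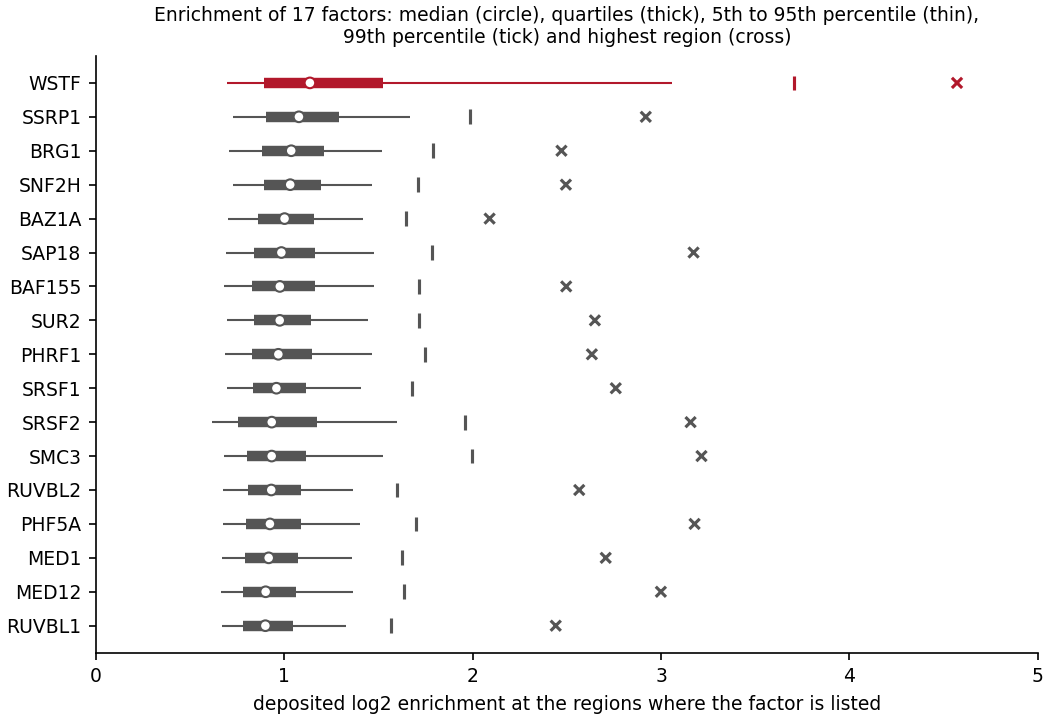
Deposited log2 enrichment (horizontal axis) of each of the 17 factors over the regions where it was listed: median, quartiles, 5th to 95th percentile, 99th percentile and highest region. WSTF reaches 3.06 at its 95th percentile and 4.57 at its highest region, and the 16 other factors have 95th percentiles of 1.33 to 1.67.

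WSTF was strongest at narrow regions. Across the 6414 regions Spearman's rho of the WSTF value with width was -0.50, a description over regions that share 2 libraries. The other 16 factors had rho from -0.39 to -0.03 with width. In the narrowest quartile of WSTF regions, 181 to 262 bp wide, the median log2 enrichment was 1.46 and 27.9% reached 2. In the widest quartile, from 1007 bp, the median was 0.90 and 0.250% reached 2. The 829 regions with a log2 of 2 or more had a median width of 254 bp, and 69.5% of them were at most 300 bp wide.

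WSTF values also differed between the H3K4 classes, which have different widths. The median log2 enrichment was 1.22 at H3K4me1-only regions (1.20 to 1.24), 1.10 at regions with both marks (1.08 to 1.12) and 0.99 at H3K4me3-only regions (0.96 to 1.02). In the narrowest quartile these medians were 1.44, 1.48 and 1.61, and in the widest 0.87, 0.90 and 0.91, so the order of the classes was not kept at matched width. A log2 of 2 or more was reached in the narrowest quartile by 27.5%, 26.9% and 40.3% of the WSTF regions of the classes. The last share was 25 of 62 regions (29.0 to 52.7). In the second quartile the shares were 17.1%, 21.7% and 12.2%. WSTF regions without H3K27ac had a median of 1.23 and those with it 1.09. In the narrowest quartile the medians were 1.42 and 1.51.

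SNF2H, the ATPase that WSTF binds, was present at 2978 WSTF regions (46.4%, 45.2 to 47.6) and at 39.1% of regions without WSTF. The difference was 7.29 points (6.01 to 8.57) and 2.89 points after weighting to H3K4 class and width. Looked at from the SNF2H side, 11.04% of its 26965 regions had WSTF, close to the 9.47% of all regions. The SNF2H share was higher with WSTF in each class, by 5.37 points at H3K4me1-only, 4.26 points at both-mark and 5.45 points at H3K4me3-only regions. Weighted to width within the class, these differences were 2.53, 3.13 and 3.70 points.

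BAZ1A, the alternative partner of SNF2H, was present at 1812 WSTF regions (28.3%, 27.2 to 29.4) and at 22.2% of the others. After weighting, its difference of 6.03 points (4.89 to 7.19) became -0.231 points. Both ISWI proteins were listed at 19.01% of WSTF regions (14.2% of the others, 18.3% weighted), SNF2H without BAZ1A at 27.4% (24.9%, 25.2% weighted), and BAZ1A without SNF2H at 9.25% (7.98%, 10.2% weighted). At 2843 WSTF regions (44.3%, 43.1 to 45.5) neither SNF2H nor BAZ1A was listed. That combination stood at 52.9% of regions without WSTF, or 46.3% weighted.

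The strength of WSTF was only weakly related to that of SNF2H. At the 2978 regions with both, Spearman's rho of their log2 values was 0.05, and within quartiles of width it ran from 0.02 to 0.22. The median WSTF value was 1.13 with SNF2H and 1.14 without it, at median widths of 515.5 and 364 bp. At matched width it was higher with SNF2H in each of the 4 quartiles: 1.49 against 1.44 in the narrowest, then 1.31 against 1.29 and 1.10 against 1.06. In the widest it was 0.93 (0.91 to 0.95) against 0.85 (0.84 to 0.87), the quartile in which the intervals did not overlap. Over the 16 other factors the rho with WSTF lay between 0.05 and 0.20. For SNF2H with the 15 factors other than WSTF the rho was 0.28 to 0.47, over regions not confined to those with WSTF. Those ranges thus rest on different sets of regions. All are descriptions over regions, and the values come from the same cells.

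The other complexes were slightly more frequent at WSTF regions. Of the 16 other factors, 16 had a higher share with WSTF than without, and for 15 the interval of the difference lay above 0. The mean difference was 5.57 points, and 1.81 points after weighting to class and width, with 13 of 16 then above 0. The largest weighted differences were those of RUVBL1 (39.0% with WSTF against 34.7% weighted without) and RUVBL2 (46.3% against 42.1%), AAA+ ATPases shared by INO80, SRCAP and TIP60 complexes. SAP18, a subunit of the Sin3 deacetylase and of splicing-linked complexes, stood at 48.1% against 44.6%.

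For the BAF remodeller, the core subunit BAF155 was at 30.8% of WSTF regions against 27.5% weighted, and the ATPase BRG1 at 26.5% against 23.4%. BRG1 had the larger unweighted difference of the pair, 8.54 points (7.43 to 9.68). At least 1 of the 2 subunits was listed at 45.1% of WSTF regions, 35.7% of the others and 40.9% weighted. In Mediator, which links enhancer-bound factors to RNA polymerase, MED1 was 3.03 points, SUR2 1.36 points and MED12 0.489 points more frequent after weighting.

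Among splicing proteins, the SR proteins SRSF2 (58.5% of WSTF regions) and SRSF1 (47.1%) had weighted differences of 2.23 and 1.72 points. PHF5A, a subunit of the SF3b splicing complex, went from 3.96 points (2.89 to 5.06) to -1.25 points. Cohesin's SMC3 was at 38.7% of WSTF regions and 38.8% weighted without. SSRP1 of the histone chaperone FACT stood at 35.0% and 34.9%, and the PHD-finger protein PHRF1 at 40.0% and 39.6%.

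**Figure D4:**
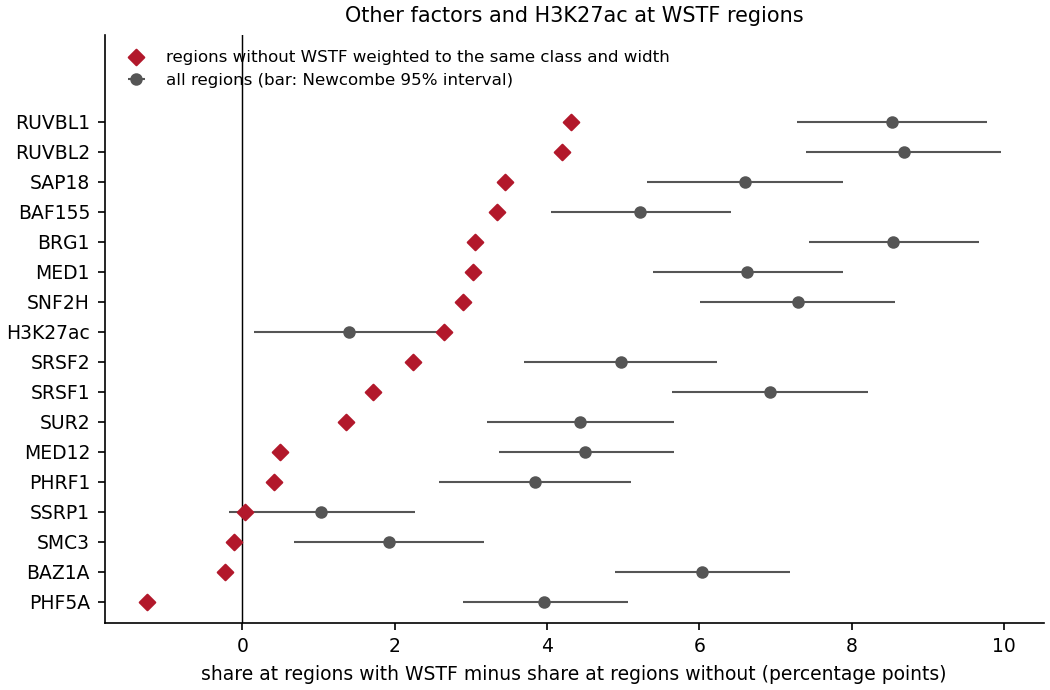
Difference in the share of regions with each other factor or H3K27ac, regions with WSTF minus regions without (percentage points). Circles give all regions with Newcombe 95% intervals, and diamonds use regions without WSTF weighted to the same H3K4 class and width; the weighted differences run from -1.25 points for PHF5A to 4.32 for RUVBL1.

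WSTF was the factor least tied to sites that hold many factors. WSTF regions had a mean of 6.10 of the 16 other factors (SD 4.28 over regions) and regions without WSTF 5.21, a difference of 0.891, or 0.289 after weighting. For the other 16 factors the same unweighted difference was 3.70 to 5.07. The WSTF share was 5.76% at regions with none of the others, 9.89% with 4 and 11.3% with 16. SNF2H, counted against its own 16 other factors, stood at 4.00%, 33.4% and 96.4%. The 96.4% rests on 55 regions, all of them with WSTF because WSTF is among those 16, and the 11.3% on 468 regions. Over all regions SNF2H was listed at 39.8% and WSTF at 9.47%. No other factor was listed at 550 WSTF regions (8.57%), and this share was 0.781% to 4.50% for the other factors. Of those 550 regions, 524 were H3K4me1 only. All 16 others were listed at 53 WSTF regions, of which 45 carried both marks and 8 H3K4me3 only.

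The strongest WSTF regions held most other factors less often than weaker ones before class and width were matched. After matching the differences had both signs. Regions with a WSTF log2 of 2 or more had lower shares of 13 of the 16 factors than weaker WSTF regions, with intervals below 0 for 10. The largest such differences were those of BAF155 (19.8% against 32.5%) and RUVBL2 (36.1% against 47.8%), and PHF5A (29.0% against 22.6%) and BAZ1A (31.6% against 27.8%) were among the 3 that were higher. SNF2H stood at 43.3% and 46.9%, within the counting error. When weaker WSTF regions were weighted to the class and width of the strong ones, 12 of 16 factors were more frequent at the strong ones and 4 less frequent. The differences ran from -3.46 points for SRSF1 to 2.70 for PHF5A. No interval was computed for these weighted differences, so the count of signs is a description only.

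Single regions show the range. Positions are those of genome build mm9, counted from 1; no annotation of that build was used, so genes are not named. The strongest WSTF region was chr5:121042547-121042759, a 213 bp H3K4me1-only region of the poised list with a WSTF log2 of 4.57, SNF2H at 0.99, BAZ1A, SMC3, RUVBL2 and SAP18. The strongest region with both marks, chr9:118398721-118398911, had WSTF at 4.38, SNF2H at 1.71 and H3K27ac at 1.10. Among H3K4me3-only regions, chr13:51901692-51901872 led with WSTF at 4.09 and 14 other factors. Of the 9 regions with the highest WSTF value in the 3 classes, all were between 181 and 249 bp wide and 6 had SNF2H.

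The strongest WSTF region with no other factor was chr1:162829859-162830224, an H3K4me1-only region with WSTF at 3.83. The next, chr10:25000115-25000364 and chr9:109855169-109855382, had 3.71 and 3.71 with no H3K27ac listed. At the opposite end, chr6:121293490-121293698 held all 16 other factors with WSTF at 3.29 and SNF2H at 1.32, and chr13:25361590-25362069 held them with WSTF at 2.13. WSTF and SNF2H were jointly highest at chr7:25272138-25272365, a 228 bp region with both marks, WSTF at 3.63, SNF2H at 2.13 and 13 other factors in all. The second by this measure was chrX:86733504-86733821, an H3K4me3-only region with WSTF at 2.41 and SNF2H at 2.04.

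The X chromosome had a higher share of WSTF regions than each autosome. WSTF was listed at 132 of its 643 regions (20.5%, 17.6 to 23.8) and at 9.37% of autosomal regions, a difference of 11.2 points (8.21 to 14.5). The 19 autosomes lay between 8.56% and 11.2%. The X regions were of other classes: 62.4% were H3K4me3 only, against 10.5% on autosomes. Within the classes WSTF stood at 14.0% of 86 H3K4me1-only regions (8.17 to 22.8; autosomes 8.44%), 19.2% of 156 both-mark regions (autosomes 10.1%) and 22.4% of 401 H3K4me3-only regions (autosomes 13.02%). With autosomal regions weighted to the class and width of the X regions, the difference was 6.11 points. All 17 factors were more frequent on the X unweighted and 10 of 17 weighted. WSTF had the highest ratio of the 17, 2.19 unweighted and 1.42 weighted, followed by BRG1 with 1.19 weighted. In points its weighted difference was also the largest, but its unweighted one was not. The unweighted differences of the other factors ran from 2.54 points (SSRP1) to 33.4 points (RUVBL2). The median WSTF value was 1.17 on the X and 1.13 on autosomes. Few H3K4me1-only regions of the X were in the table, and how the regions were filtered is not given in the sources used here.

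Chromosome 11 had the highest WSTF share of the autosomes, 612 of 5440 regions (11.2%, 10.4 to 12.1), with 18 of 18 other autosomes lower. SNF2H stood at 68.6% there, against 32.1% to 41.6% on the other autosomes. The share of WSTF regions with SNF2H was 71.2% on chromosome 11 and 43.7% on the other autosomes. Without chromosome 11, the SNF2H difference between regions with and without WSTF was 7.16 points. On the X it had the opposite sign, 50.0% of 132 WSTF regions (41.6 to 58.4) against 55.4% of the others (51.0 to 59.6).

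**Figure D5:**
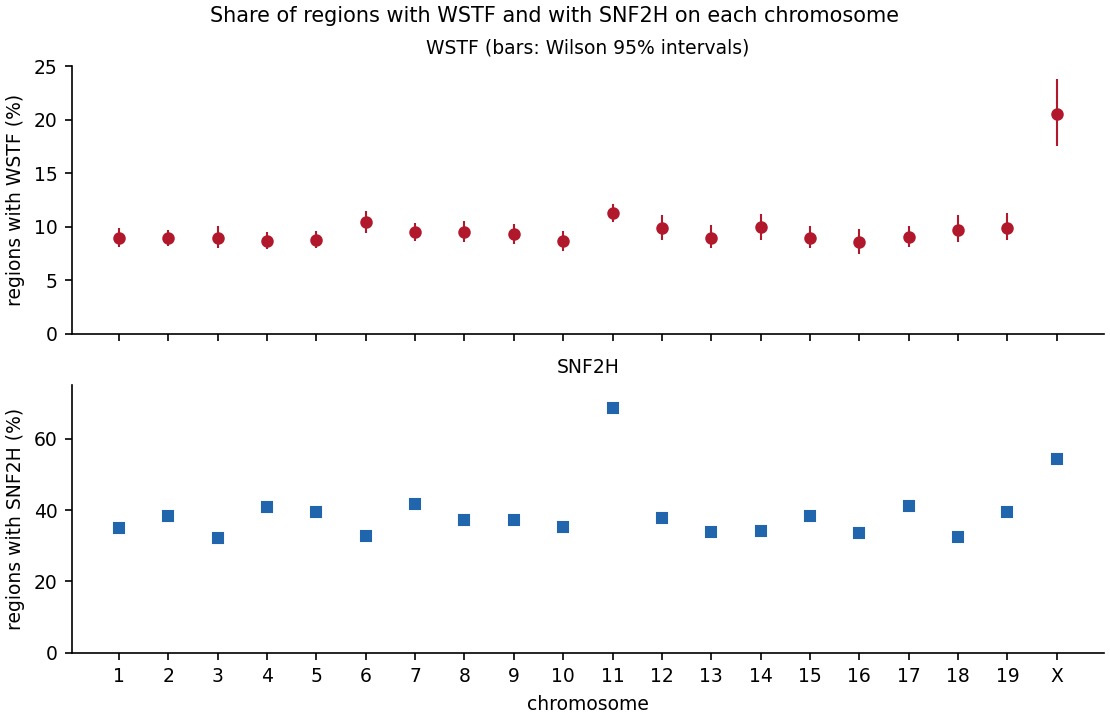
Share of the regions of each chromosome (percent) with WSTF (upper panel, Wilson 95% intervals) and with SNF2H (lower panel). WSTF stands at 20.5% on the X and at 8.56% to 11.2% on the autosomes, and SNF2H at 68.6% on chromosome 11.

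The last comparison asked whether H3K4 methylation at WSTF regions differed between R1 cells with wild-type and with catalytically dead MLL3 and MLL4, the main H3K4 monomethyltransferases of enhancers. Peaks that overlapped a region by at least 1 bp were compared, with a single deposited fold enrichment for each line. Over all H3K4me1 peaks of the table, 28.4% dropped 2-fold or more from wild-type to mutant cells and 15.2% gained 2-fold or more; these are changes of size with no test. At WSTF regions 949 of 4869 H3K4me1 peaks were lower (19.5%) and 1097 higher (22.5%), and at regions without WSTF 21.7% and 17.7%. These sums mix the classes, which differed from each other.

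Within the classes the median H3K4me1 ratios over all WSTF peaks lay close to those without WSTF, but at regions with both marks decreases were more frequent with WSTF. At H3K4me1-only regions the wild-type median fold enrichment at WSTF was 3.12 and the mutant one 1.84. The log2 ratio of mutant over wild-type had a median of -0.80 (-0.86 to -0.76), against -0.76 (-0.78 to -0.75) without WSTF. A decrease of at least 2-fold was given for 41.7% and 39.8% of peaks. At regions with both marks the median log2 ratios were 0.56 and 0.59, and at H3K4me3-only regions 1.07 and 1.07. At both-mark regions a decrease of at least 2-fold was given for 7.43% of peaks with WSTF (6.26 to 8.79) and 4.86% without (4.55 to 5.19). The 261 H3K4me1 peaks at H3K4me1-only regions with a WSTF log2 of 2 or more had a median of -0.94 (-1.05 to -0.76). The 134 such peaks at both-mark regions had a median of 0.23 (-0.11 to 0.38), and 17.2% of them (11.7 to 24.4) were lower by 2-fold or more. Of these 134 peaks 75.4% were distal, against 52.1% of all both-mark peaks with WSTF and 46.9% of those without. Both-mark regions with WSTF were also narrower, with medians of 602 against 1164 bp. An R1 H3K4me3 peak overlapped 68.9% of them, against 77.2% of both-mark regions without WSTF (65.5% weighted to width). The ratios were not matched for width or position, and the part of these in the differences was not tested.

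H3K4me2 gave a like picture in the medians, but not in the decreases over all both-mark peaks. Over the whole H3K4me2 table, 23.0% of peaks were lower by 2-fold or more in mutant cells and 1.91% higher by as much. At H3K4me1-only regions the median log2 ratio was -0.96 with WSTF and -0.92 without, with 48.6% and 46.7% of peaks lower by 2-fold or more. At H3K4me3-only regions it was 0.24 with WSTF and 0.24 without. The median H3K4me3 log2 ratio lay between -0.04 and 0.04 in each class with WSTF. WSTF itself was measured in 129/Ola cells, so these values describe H3K4 methylation in another line at the regions WSTF held there.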

How the data were processed

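The authors deposited region tables of 129/Ola ES cells with 1 value per factor and region, which carry no header and were read as log2 enrichment. They also deposited peak tables of R1 cells with a fold enrichment (ratio) per line, marked FE per the file headers. Per the submitters' processing notes the build was mm9. For 129/Ola libraries they list MACS2, Bowtie and Picard, with no version. For R1 libraries they list deepTools (2.5.1 and 2.5.3), MACS2 2.1.0.20150731, BWA 0.7.13-r1126 and Picard 2.11.0. The sources used here do not say how replicates were pooled or what the enrichment is relative to.

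Of 31 names in the region table, 20 matched 129/Ola libraries and the other 11 were left out. Regions do not overlap and lie at least 1 kb apart. Weighted values set regions without WSTF to the makeup of WSTF regions over 30 strata, the 3 H3K4 classes by 10 deciles of width. The R1 score columns were out of step with the positions, in number order of chromosomes against text order, and were put back in step: the rank correlation (Spearman) between width and wild-type H3K4me1 fold enrichment, averaged over chromosomes 2 to 19, was 0.00253 as deposited and 0.253 restored, against 0.215 on chromosome 1.

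Named regions were chosen by rule: in each class the 3 with the highest WSTF value, the 3 with most other factors, the 3 strongest with none and the 3 with the highest minimum of WSTF and SNF2H. Medians have order-statistic intervals. Members and lists were chosen with earlier results of these data known. Alternatives were another threshold on the log2 value, weighting or standardising, autosomes only, other overlap rules, and the deposited layout. Scripts ran in Python 3.11.15 with pandas 2.3.3, numpy 2.4.6 and scipy 1.17.1, bedtools 2.31.1 and matplotlib 3.10.9, and were checked on simulated data.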

Additional observations from a re-analysis of the deposited data

How the results depend on the processing

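Each result was recomputed with 1 choice changed. The values below are those of the main comparisons that left the counting interval of the value in the report, and those of single factors whose sign turned (SMC3, PHF5A, SSRP1). For the 14 factors other than SNF2H and BAZ1A, 30 values left their interval with no turn of an interval that excluded 0. The 6 that lay higher came with a log2 of 1 for all factors: SSRP1 4.77, SMC3 4.91, SRSF2 8.22, PHRF1 6.85, SUR2 7.19 and SRSF1 9.83 points. With WSTF counted from a log2 of 1, the class shares were 5.80%, 6.17% and 6.66% (H3K4me1 only, both marks, H3K4me3 only). The classes then made up 59.8%, 27.99% and 12.2% of WSTF regions, the difference in median width was -521.5 bp and the X difference 7.61 points. With WSTF and the other factors all counted from a log2 of 1, the difference in the mean number of other factors was 1.07. Standardised to width, the class shares were 7.44%, 11.4% and 15.2%. Weighted to class and width, the differences were 2.89 points for SNF2H, -0.231 for BAZ1A, -0.115 for SMC3, -1.25 for PHF5A and 2.64 for H3K27ac, 0.289 other factors, and 6.11 points for the X. Over regions with at least 1 other factor SNF2H differed by 4.91, BAZ1A by 4.86, SMC3 by -0.778 and SSRP1 by -1.52 points, with 14 of 16 factors above 0. H3K27ac from a log2 of 1 differed by 4.79 points. Within the classes the median widths differed by -261, -562 and -359 bp, and over quartiles of width the median WSTF log2 was 1.46, 1.30, 1.08 and 0.90. With at least 50% of a peak covered, the H3K4me1 log2 ratio at both-mark regions differed by 0.083, and in the deposited layout by -0.11 there and 0.12 at H3K4me3-only regions. The cause was not tested. Chosen after seeing the data were the class shares within H3K27ac (7.98% with and 8.86% without at H3K4me1-only regions, 11.4% without at both-mark and 11.7% without at H3K4me3-only regions), chromosomes 1 and X alone for the H3K4me1 ratio (-0.14 at H3K4me1-only regions), a log2 of 3 for the strongest regions (73.3% H3K4me1 only), weighting and the threshold for the X, the division of H3K4me1-only regions without the enhancer lists, and leaving out chromosome 11. No paired analysis was possible because each factor has a single pooled value. Leaving out a library was not possible for the same reason. Unknown depth limits every region without WSTF, which may hold WSTF below the limit of 1.5-fold.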

Other observations

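WSTF sites showed little clustering among regions with a near neighbour. Another region lay within 5 kb of 55.6% of WSTF regions and of 61.3% of the others. Among the 41164 regions with another region within 5 kb, WSTF was listed at 9.09% of those with a WSTF region that near and at 8.62% of those without, a difference of 0.479 points (-0.367 to 1.39). For the other 16 factors this difference ran from 2.43 points for PHF5A to 23.2 points for SSRP1, and SNF2H stood at 46.9% and 30.9%. As a ratio of the shares WSTF stood at 1.06, and the others at 1.14 (PHF5A) to 1.95 (SSRP1).

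On chromosome 11, 12 of the 17 factors had a higher share of regions than on each of the other 18 autosomes. SNF2H was listed at 68.6% of its regions (median of the other autosomes 37.2%), MED1 at 60.1% (28.9%) and SRSF2 at 78.0% (51.7%). WSTF differed by 2.23 points from the median of the others. BAZ1A and BRG1 stood below that median, with differences of -0.561 and -0.662 points. The median WSTF log2 enrichment was 1.20 on chromosome 11 and 1.13 on the other autosomes.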
